A study of Mus musculus with 6 samples.

Results

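Histone-modifying enzymes write or erase the acetyl and methyl groups that decorate histone tails, and ATP-dependent remodelers of the SWI/SNF and CHD type slide or eject nucleosomes. Acetyltransferases (KAT) and the deacetylases (HDAC and sirtuins) work against each other, as lysine methyltransferases (KMT, SETD) and demethylases (KDM) do, while arginine methyltransferases (PRMT) modify a separate set of residues. Many of these proteins are subunits of large complexes, so the family name of a gene does not tell in which complex its product works. The genes described here were chosen by name: every gene whose symbol belongs to 1 of the 9 families *Kdm*, *Kat*, *Hdac*, *Sirt*, *Setd*, *Kmt*, *Prmt*, *Smarc* and *Chd*. There are 93 such genes among the 26656 gene identifiers listed. Of these, 48 had enough signal to be tested, out of 5752 tested genes in all. *Prmt1* was not analysed here.

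The cells were N2a, a mouse neuroblastoma line that the labels describe as wild-type in genotype. One group (CTR) received the pLKO.1-shCTR plasmid with a non-targeting shRNA, and the other (NPM1 KD) the pLKO.1-shNpm1 plasmid with 1 shRNA against *Npm1*. Cells were transfected and harvested at 72 h for long-read cDNA sequencing, with 3 libraries per group. Puromycin (9.3 µg/ml) was added from 24 h on in the knock-down experiments, and the labels do not state separately whether CTR cells received it. The model has limits: a single shRNA sequence was used, *Npm1* RNA was reduced and not removed, and the text on the samples gives both 3 and 2 biological replicates. Where replicates are not separate cultures, the p-values of the main test measure only the spread between these libraries, pooled over genes. In bulk RNA, fewer cells with a transcript and less transcript per cell cannot be told apart.

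The deposited value of a gene in a library is a regularized log (rlog) value, a log2 expression level corrected for library size in which genes with few reads are shrunk towards their mean. Apart from values between −1 and 1 these were rounded to whole numbers, and group means therefore differ in steps of 1/3 of a log2 unit. Relative sequencing depth, inferred from genes that had 1 read, spanned 0.784 to 1.30. *Npm1* (ENSMUSG00000057113), a nucleolar histone chaperone and the target of the shRNA, had rlog values of 10, 10 and 10 in CTR against 8, 8 and 8 in NPM1 KD. It fell by 2 on the log2 scale (limma, standard error 0.33, adjusted p = 3.23e-06, with 3 libraries per group). Of 16 sympathoadrenal neuroblastoma markers, 9 passed the filter on low signal (a mean rlog value of at least 3.32) and those listed at 0 in every library included the neurofilament genes *Nefl* and *Nefm*. The rlog values of the 16 markers added up to 67.3 to 69.4 in CTR and 59.4 to 62.5 in NPM1 KD, and *Chga* and *Chgb*, which encode secretory granule proteins, were called lower. The part of this shift in the results below was not tested. All 14 markers of leukocytes, fibroblasts, endothelium, epithelium and glia were below the filter.

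Upon NPM1 KD none of the 48 tested genes of these families (the members) passed the threshold. Of these 48, which include the pseudogene entries *Smarca5-ps* and *Smarce1-ps1*, 28 had equal group means of the rounded values. With limma's moderated test, 0 members were called higher and 0 lower at an adjusted p below 0.05, against 4 higher (0.0695%) and 24 lower (0.417%) of all tested genes, together 0.487%. At an unadjusted p below 0.05 there were 3 members higher and 4 lower, a share of 14.6%, close to the 14.1% of all tested genes (6.07% higher, 8.07% lower). The log2 fold change was 0 in 28 members, above 0 in 9 and below 0 in 11. The median was 0 and the mean −0.0278, and over all tested genes they were 0 and −0.0239.

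A single rounded value in all 6 libraries was held by 21 members, or 43.8%, against 40.2% of all tested genes. Such a value leaves an unrounded difference of anything above −1 and below 1, so it does not show that a member was unchanged. An absolute log2 fold change of at least 0.6 was found in 7 members, or 14.6%, against 21.2% of all tested genes. The smallest absolute log2 fold change that passed the threshold in any gene was 1.33, which 0 of the members reached. The standard error of a member's log2 fold change was 0.33 to 0.39, and 37 of the 48 had a standard error larger than their fold change. In this test the variance was pooled over all tested genes of similar rlog level. The standard errors, confidence intervals and p-values therefore do not reflect how far a gene's own libraries spread. *Smarca2*, whose libraries varied within groups, and *Kdm5a*, whose libraries did not, have the same adjusted p of 0.0791 (limma). Counting error alone, from the authors' mean normalized counts and with equal depth assumed, would be 0.0841 to 0.346. Differences of 1 unit did not pass this test, and their calls under other treatments of the variance are given below.

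**Figure D1:**
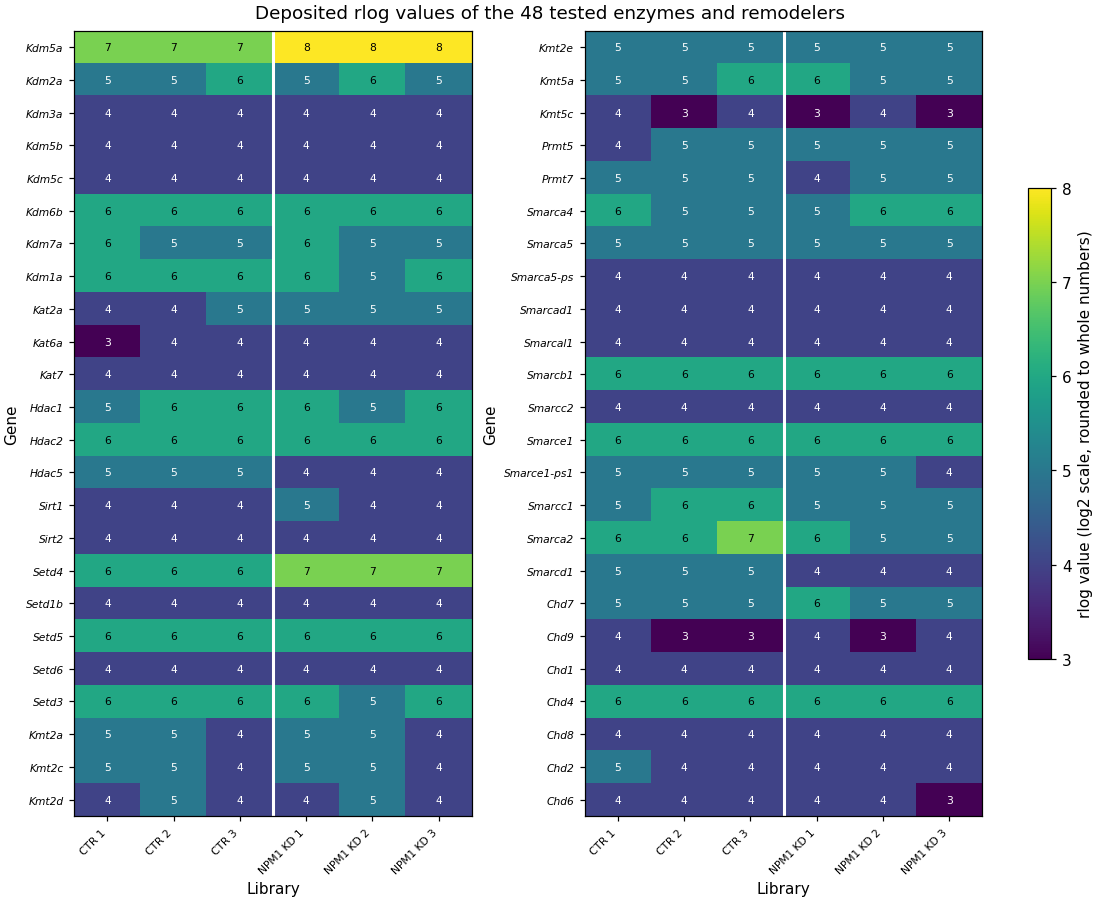
The rlog value (log2 scale, rounded to whole numbers) of each of the 48 tested members is printed in its cell, with genes as rows grouped by family and the 3 CTR and 3 NPM1 KD libraries as columns. In 21 rows all 6 cells hold the same number, and in 4 rows (*Kdm5a*, *Setd4*, *Hdac5*, *Smarcd1*) the white line between the groups separates 2 different numbers.

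In 4 members the NPM1 KD libraries all lay on one side of the CTR libraries: *Kdm5a* and *Setd4* above, *Hdac5* and *Smarcd1* below. That is 8.33% of the members, where 5.6% of all tested genes had groups that did not overlap (2.19% higher, 3.41% lower). *Kdm5a* (ENSMUSG00000030180) removes methyl groups from lysine 4 of histone H3, a mark of active promoters. Its rlog values were 7, 7 and 7 in CTR against 8, 8 and 8 in NPM1 KD, with an authors' mean normalized count of 196. The log2 fold change was 1 (standard error 0.35, 95% confidence interval 0.32 to 1.68, limma adjusted p = 0.0791). The rounded value of every NPM1 KD library was thus 1 unit above that of every CTR library, and the adjusted p missed the threshold.

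*Setd4* (ENSMUSG00000022948), which encodes a SET domain protein, had rlog values of 6, 6 and 6 in CTR against 7, 7 and 7 in NPM1 KD. The fold change on the log2 scale was 1 (limma, standard error 0.35 and adjusted p = 0.0791), again without overlap between the groups. *Hdac5* (ENSMUSG00000008855) encodes a class IIa deacetylase that shuttles between nucleus and cytoplasm and represses MEF2 target genes. It had rlog values of 5, 5 and 5 in CTR against 4, 4 and 4 in NPM1 KD, which gives −1 on the log2 scale (limma, standard error 0.33 and adjusted p = 0.0791). *Smarcd1* (ENSMUSG00000023018), the BAF60A subunit through which SWI/SNF complexes contact transcription factors, showed the same values as *Hdac5*, 5 in each CTR and 4 in each NPM1 KD library. Its log2 fold change was likewise −1 (limma, standard error 0.33 and adjusted p = 0.0791).

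Rounding limits what these 4 differences can say, since a step from one whole number to the next leaves an unrounded difference of anything above 0 and below 2. Random draws of the unrounded values, made uniformly within each rounding interval, gave log2 fold changes of 1.00 for *Kdm5a* (standard error 0.41), 1.00 for *Setd4* (standard error 0.40), −1.01 for *Hdac5* (standard error 0.41) and −0.91 for *Smarcd1* (standard error 0.34). The limma adjusted p was then 0.987 to 0.989 for all 4. Fold changes near those of the rounded values follow from draws centred on them. No gene was called in these draws, not even *Npm1* (limma adjusted p = 0.673), so they cannot decide about these 4 members. When the variance was instead left at 0 for genes with equal values within groups, all 4 passed the threshold, and likewise when no intensity trend was used, with an adjusted p of 0.0304. Leaving out any 1 library kept the 4 fold changes at 1 or −1, which equal values within each group fix in advance. The limma adjusted p was then 0.182 to 0.248.

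**Figure D2:**
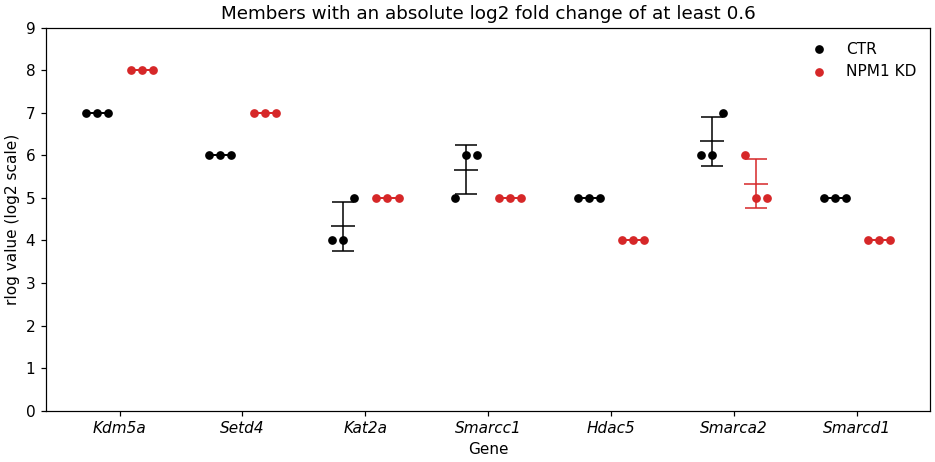
Each point is the rlog value (log2 scale) of 1 library for the 7 members with an absolute log2 fold change of at least 0.6, CTR in black and NPM1 KD in red, with the mean and SD as bars. *Kdm5a*, *Setd4*, *Hdac5* and *Smarcd1* show no overlap and no spread within groups, whereas *Kat2a*, *Smarcc1* and *Smarca2* share at least 1 value between groups.

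The promoters of *Setd4*, *Hdac5* and *Smarcd1* are shown because their libraries separated by group. The sequences are windows of 300 bases around the annotated start, 5′ to 3′ on the gene's strand, from RefSeq on GRCm38.p6. Capitals mark the GC box, GGGCGG or its other-strand form CCGCCC.
*Setd4*, chr16:93603766-93604065, minus strand: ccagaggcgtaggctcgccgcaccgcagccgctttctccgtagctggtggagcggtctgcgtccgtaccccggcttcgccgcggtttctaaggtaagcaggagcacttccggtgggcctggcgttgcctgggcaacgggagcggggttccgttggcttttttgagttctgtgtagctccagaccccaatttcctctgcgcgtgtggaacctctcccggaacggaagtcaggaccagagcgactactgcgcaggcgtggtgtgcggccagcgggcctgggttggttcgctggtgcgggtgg
*Hdac5*, chr11:102230123-102230422, minus strand: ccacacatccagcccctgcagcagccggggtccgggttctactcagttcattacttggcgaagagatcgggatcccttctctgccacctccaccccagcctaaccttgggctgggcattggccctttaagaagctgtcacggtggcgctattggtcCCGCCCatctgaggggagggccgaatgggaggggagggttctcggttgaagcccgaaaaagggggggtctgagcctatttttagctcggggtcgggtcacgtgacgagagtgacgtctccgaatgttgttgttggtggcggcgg
*Smarcd1*, chr15:99702037-99702336, plus strand: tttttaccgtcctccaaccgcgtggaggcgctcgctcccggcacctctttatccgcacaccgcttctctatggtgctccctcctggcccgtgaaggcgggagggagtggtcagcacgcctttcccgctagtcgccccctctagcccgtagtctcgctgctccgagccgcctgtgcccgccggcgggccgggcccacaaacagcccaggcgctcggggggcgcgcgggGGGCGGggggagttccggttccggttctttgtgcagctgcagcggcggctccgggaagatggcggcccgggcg

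All of them are rich in G and C, with 65.3% in *Setd4*, 60.7% in *Hdac5* and 71.3% in *Smarcd1*, where the median of 27025 promoters in the table was 52.7%. They hold 29, 18 and 35 CpG dinucleotides in that order, against a median of 7. The GC box was found once in *Hdac5*, once in *Smarcd1* and not in *Setd4*, and 35.9% of all promoters hold at least 1. The E-box CACGTG, which is its own reverse complement, occurs once in *Hdac5*, and 7.24% of all promoters hold it. *Hdac5* has 2 and *Setd4* has 1 match to the CCAAT box CCAAT or ATTGG (37.9% of all promoters), and the TATA box TATAAA or TTTATA (14.2%) was not found in these 3 windows. Motifs were searched on both strands, and overlaps between different motifs were not removed. Richness in G and C is not particular to these 3 genes. The 35 tested members that matched the table had medians of 61.3% and 27 CpG, and 74.3% of them held a GC box. Since only 35 of the 48 tested members matched, under the 80% set for such a check, a comparison of the members' promoters as a group with all promoters is void. *Kdm5a* was not matched.

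Among the demethylases, *Kdm5a* was the exception and the other tested members lay within 0.33 of 0. Of 18 *Kdm* genes listed, 8 were tested, with 1 higher, 6 equal and 1 lower and a mean log2 fold change of 0.0833. *Kdm1a* (LSD1), which demethylates lysine 4 of histone H3 within the CoREST complex, had 6, 6 and 6 in CTR against 6, 5 and 6 in NPM1 KD (log2 fold change −0.33, limma adjusted p = 0.713). That difference rests on NPM1 KD replicate 2 and was 0 without it. *Kdm3a*, an eraser of methylation at lysine 9 of histone H3, *Kdm5b* and *Kdm5c*, both paralogs of *Kdm5a*, stood at 4 in all 6 libraries, and the H3K27 demethylase *Kdm6b* stood at 6. *Kdm2a* and *Kdm7a* varied between 5 and 6 within both groups and had a log2 fold change of 0. *Kdm6a* (UTX) stood at 1 in all 6 libraries, too low to be tested, and the Y-linked *Kdm5d* was listed at 0.

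Of 8 *Kat* genes 3 were tested, and their log2 fold changes were 0.67, 0.33 and 0. *Kat2a* (GCN5), the acetyltransferase of the SAGA and ATAC complexes, had 4, 4 and 5 in CTR against 5, 5 and 5 in NPM1 KD. Its log2 fold change was 0.67 (standard error 0.33, unadjusted p = 0.0426, limma adjusted p = 0.33), with CTR replicate 3 at the level of the NPM1 KD libraries. Without that library the groups did not overlap and the log2 fold change was 1, still short of the threshold (limma adjusted p = 0.224). *Kat6a* (MOZ) was at 3 in CTR replicate 1 and at 4 in the other 5 libraries, and *Kat7* (HBO1) at 4 in all 6. *Kat5* (TIP60) and *Kat8* (MOF), acetyltransferases of histone H4, were below the filter, with authors' mean normalized counts of 0.683 and 1.20.

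Among the deacetylases the class I pair *Hdac1* and *Hdac2* had equal group means, and *Hdac5* did not. Of 11 *Hdac* genes 3 were tested. *Hdac2*, a catalytic subunit of the NuRD, SIN3 and CoREST corepressors, stood at 6 in all 6 libraries. Its paralog *Hdac1* had 5, 6 and 6 in CTR against 6, 5 and 6 in NPM1 KD, a log2 fold change of 0. *Hdac3*, the deacetylase of the NCoR complex, lay just outside the filter with values of 3, 3 and 4 in CTR against 3, 3 and 3 in NPM1 KD. *Hdac4*, a class IIa enzyme like *Hdac5*, was far below the filter, with 2, 1 and 2 in CTR against 1, 1 and 1 in NPM1 KD at an authors' mean normalized count of 2.82. Its groups overlapped, and no test was made. The class IIa genes *Hdac7* and *Hdac9*, also below the filter, did not fall. *Hdac7* had 1, 1 and 1 in CTR against 1, 1 and 2 in NPM1 KD, and *Hdac9* stood at 1 in all 6 libraries.

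Both tested sirtuins, of 7 listed, stood near 4. *Sirt1*, a nuclear NAD-dependent deacetylase, had 4, 4 and 4 in CTR against 5, 4 and 4 in NPM1 KD. Its difference of 0.33 on the log2 scale (limma adjusted p = 0.713) was 0 without NPM1 KD replicate 1. *Sirt2*, a mainly cytoplasmic deacetylase, stood at 4 in all 6 libraries.

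Among lysine methyltransferases *Setd4* had the one log2 fold change beyond 0.33 in size. Of 9 *Setd* genes 5 were tested: 1 was higher, 3 were equal and 1 was lower. *Setd3*, which methylates actin, had 6, 6 and 6 in CTR against 6, 5 and 6 in NPM1 KD (log2 fold change −0.33, limma adjusted p = 0.713). *Setd2*, which trimethylates lysine 36 of histone H3, stood at 3 in all 6 libraries and was below the filter. Of 8 *Kmt* genes 6 were tested, of which 5 had a log2 fold change of 0. *Kmt2a* (MLL1) and *Kmt2c* (MLL3), which methylate lysine 4 of histone H3, each had 5, 5 and 4 in CTR against 5, 5 and 4 in NPM1 KD. *Kmt2d* (MLL4) had 4, 5 and 4 in both groups, and *Kmt5a*, the H4K20 monomethyltransferase, 5, 5 and 6 in CTR against 6, 5 and 5 in NPM1 KD. In these genes the libraries within a group differed by 1 unit and the group means were equal. *Kmt5c*, which adds further methyl groups at H4K20 in heterochromatin, had 4, 3 and 4 in CTR against 3, 4 and 3 in NPM1 KD (log2 fold change −0.33, limma adjusted p = 0.752).

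Of 7 *Prmt* genes 2 were tested, and they had opposite signs. *Prmt5*, the main enzyme of symmetric arginine dimethylation, had 4, 5 and 5 in CTR against 5, 5 and 5 in NPM1 KD (log2 fold change 0.33). *Prmt7*, which monomethylates arginine, had 5, 5 and 5 in CTR against 4, 5 and 5 in NPM1 KD (log2 fold change −0.33). Each difference rests on 1 library, and neither passed the threshold (adjusted p = 0.713 for both, limma).

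**Figure D3:**
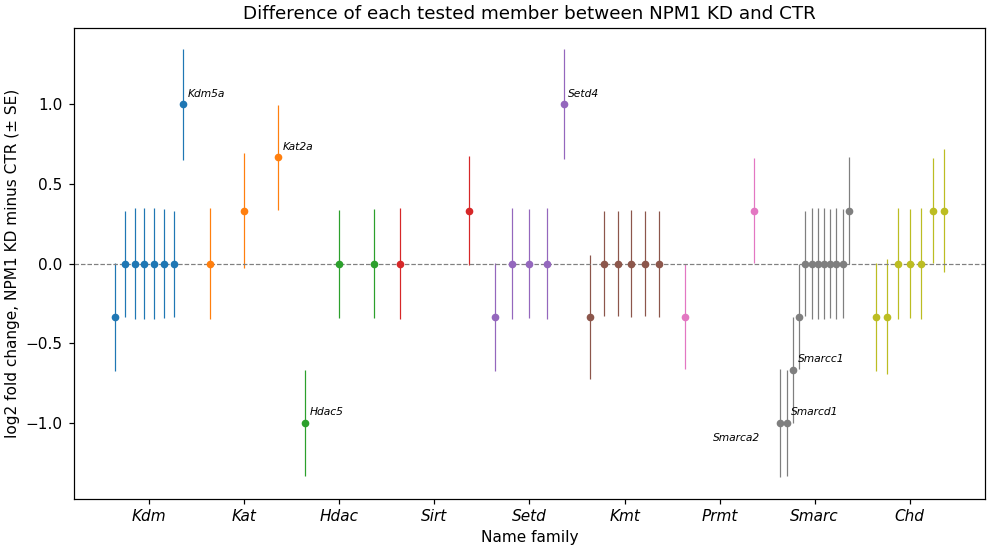
Each point is the log2 fold change (NPM1 KD minus CTR) of 1 tested member with its standard error as a bar, arranged by family along the horizontal axis. The 7 named points are those at 0.6 or beyond, 3 above and 4 below 0, and 3 of the 4 below belong to the *Smarc* family.

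Of 15 *Smarc* genes 12 were tested, with 1 higher, 7 equal and 4 lower. Log2 fold changes of −0.67 or below were found in *Smarca2*, *Smarcd1* and *Smarcc1*, all subunits of the SWI/SNF (BAF) complex. These are 3 of 12 (25%), where 678 of all 5752 tested genes (11.8%) were as low, and whether the family differs from other genes was not tested. The log2 fold changes had their median at 0 and averaged −0.22. *Smarca2* (BRM), 1 of the 2 alternative ATPases of the complex, had 6, 6 and 7 in CTR against 6, 5 and 5 in NPM1 KD. Its log2 fold change was −1 (standard error 0.34, 95% confidence interval −1.67 to −0.33, limma adjusted p = 0.0791), with NPM1 KD replicate 1 at the level of 2 CTR libraries. The fold change was −0.67 without CTR replicate 3 (adjusted p = 0.657) and −1.33 without NPM1 KD replicate 1 (adjusted p = 0.157, limma). Of the alternatives run, it passed the threshold only without an intensity trend (limma adjusted p = 0.0304).

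*Smarca4* (BRG1), the alternative ATPase, had 6, 5 and 5 in CTR against 5, 6 and 6 in NPM1 KD, which is 0.33 on the log2 scale (limma adjusted p = 0.713). The difference between the rlog values of *Smarca2* and *Smarca4* in the same library was 0, 1 and 2 in CTR, whereas NPM1 KD libraries had 1, −1 and −1. Its mean was 1 ± 1.00 (SD, n = 3) in CTR and −0.33 ± 1.15 (SD, n = 3) in NPM1 KD, which overlap (exact permutation test over libraries, two-sided, p = 0.3, where 0.1 is the smallest possible). *Smarcc1* (BAF155), a scaffold subunit, had 5, 6 and 6 in CTR against 5, 5 and 5 in NPM1 KD (log2 fold change −0.67, limma, standard error 0.33 and adjusted p = 0.33). Its groups shared the value 5 through CTR replicate 1.

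The remaining core subunits each held a single rounded value. *Smarcb1* (SNF5) and *Smarce1* (BAF57) stood at 6 in all 6 libraries, and *Smarcc2* (BAF170), the paralog of *Smarcc1*, at 4. *Smarca5* (SNF2H), the ATPase of the separate ISWI complexes, stood at 5, and *Smarcad1* and *Smarcal1*, remodelers outside SWI/SNF, at 4. Pseudogene entries also passed the filter: *Smarca5-ps* at 4 in all 6 libraries and *Smarce1-ps1* at 5 except in NPM1 KD replicate 3, which had 4. Both are counted among the 12 tested *Smarc* genes, *Smarca5-ps* as equal and *Smarce1-ps1* as lower. Reads of these copies and of their parent genes may be split by the counting, so *Smarca5* and *Smarce1* are uncertain in level.

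The *Chd* remodelers showed no member with an absolute log2 fold change above 0.33. Of 10 listed 7 were tested, with 2 higher, 3 equal and 2 lower. *Chd4*, the ATPase of NuRD, stood at 6 in all 6 libraries, and *Chd8*, a CHD remodeler that binds beta-catenin, and *Chd1*, which binds trimethylated lysine 4 of histone H3, at 4. *Chd7* had 5, 5 and 5 in CTR against 6, 5 and 5 in NPM1 KD, and *Chd2* 5, 4 and 4 in CTR against 4, 4 and 4 in NPM1 KD (log2 fold changes 0.33 and −0.33, adjusted p = 0.713 for both, limma). Each of these 2 differences was 0 without a single library.

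**Figure D4:**
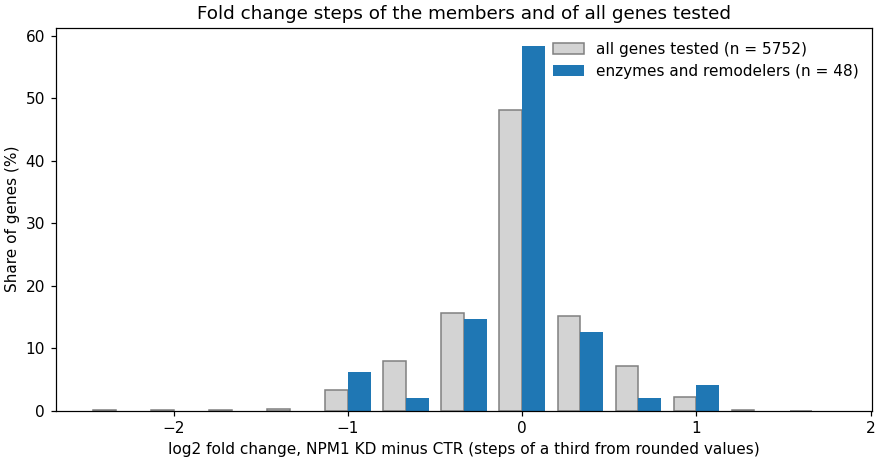
The bars give the share of genes (%) at each step of the log2 fold change, NPM1 KD minus CTR, for all 5752 tested genes in grey and the 48 members in blue. At 0 stand 58.3% of the members and 48.02% of all tested genes, and the members lie between −1 and 1.

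The 45 members below the filter included 3 listed at 0 in every library (*Kdm5d*, *Prmt8* and the pseudogene *Setd9-ps*) and 21 with a single other value in all 6. Their authors' mean normalized counts were above 5 in 20, between 1 and 5 in 17 and under 1 in 8. Closest to the filter, a mean rlog value of 3.32, were *Kmt5c* and *Chd9* inside at 3.50 and *Hdac3*, *Kdm4a*, *Chd5*, *Kdm2b* and *Prmt3* outside at 3.17. None of the 45 had whole-number values that separated the groups.

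Partner subunits of the same complexes and further enzymes of the same kinds, taken from 8 lists of genes with other names, were also uncalled. Of 160 list entries 95 were tested, of which 0 were called higher and 0 lower (limma), where 0.487% of all tested genes were called. An unadjusted p below 0.05 was found in 4 higher and 3 lower, or 7.37%, against 14.1% of all tested genes. Their median log2 fold change was 0, with 22 entries higher, 55 equal and 18 lower. *Dpy30* and *Ss18*, named after their values were seen, were the 2 tested entries whose groups did not overlap. They are 2.11% of the tested entries, against 5.6% of all tested genes. *Setdb2*, also named after its values were seen, was below the filter and not tested. It had 2 in each CTR and 3 in each NPM1 KD library, at an authors' mean normalized count of 6.66. *Dpy30*, a core subunit of the COMPASS methyltransferase complexes, had 6 in each CTR and 7 in each NPM1 KD library (log2 fold change 1, limma adjusted p = 0.0791). *Ss18*, a subunit of SWI/SNF, had 4 in each CTR and 3 in each NPM1 KD library (log2 fold change −1, limma adjusted p = 0.166). Among the 11 tested SWI/SNF subunits without a *Smarc* name, 2 were higher, 4 equal and 5 lower, and the mean log2 fold change was −0.15. For COMPASS the 10 tested subunits had a mean of 0.13, and for NuRD the 7 tested had a mean of −0.0952, with 6 of them at 0.

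In the GENCODE M21 annotation, 20 of the 48 tested members share exon bases with another annotated gene, 16 of them with a gene on the opposite strand. Of the 7 members at 0.6 or beyond, all but *Kat2a* do. *Kdm5a* shares 251 bases with *Ccdc77*, *Smarcc1* 123 with *Dhx30*, and *Smarcd1* 287 with *Gm17349*, each on the other strand. Whether the counting used strand is not given in the sources used here, so reads over these bases may not be assigned to one gene. *Dhx30*, the only one of these 3 neighbours that passed the filter, stood at 5 in all 6 libraries.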

How the data were processed

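RNA of 3 CTR and 3 NPM1 KD libraries was made into cDNA with a PCR barcoding kit and read on a nanopore instrument. The submitters' processing notes name minimap2, featureCounts, DESeq2 and GRCm39, and other settings are not given in the sources used here. The authors deposited rlog scores (log2 scale) for every gene in each library, and a mean normalized count over the 6 libraries. Fold changes and p-values of the authors' own comparison stand beside the latter and were not used. Numbers are written with decimal commas. Library totals are unknown. The mean normalized counts added up to 841220 over all gene identifiers, and the members held 0.237% of that sum.

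Here, repeated rows of a gene identifier (257 of 26913 rows) were dropped. The test was limma's moderated test (version 3.58.1, R 4.3.3, lmFit and eBayes with trend), run on genes whose rlog values averaged log2 of 10 or above. It was two-sided, p-values were adjusted by Benjamini-Hochberg across every tested gene, and calls were made below 0.05. Variances within groups were raised to at least 0.0833, the variance that rounding adds. The procedure was tried on simulated rounded data in which 200 genes changed by 1.5 on the log2 scale. It recovered 74.05% to 80.95% of them at standard deviations of 0.15 to 0.35. Changes of 1 unit were not simulated, so their recovery is unknown.

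Named are *Npm1*, all members whose groups did not overlap or whose absolute log2 fold change was at least 0.6, the largest rise and fall of each family, and 22 core enzymes, and others stand where a family is described in full. Members and lists were chosen with earlier results of these data known. Alternatives were no raised variance, random draws of unrounded values (20, combined by Rubin's rules), no trend, other filters, centred libraries, a replicate block and leaving out each library. Same-numbered libraries did not deviate together (correlations 0.0089, 0.0013 and 0.0298).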

Additional observations from a re-analysis of the deposited data

How the results depend on the processing

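The counts of called genes depended on how rounding and variance were treated. Among all tested genes, 123 were called higher and 178 lower without the raised variance, 132 and 218 without the intensity trend, 0 and 0 with random draws of the unrounded values (283 at an unadjusted p below 0.05), 1 and 10 without a filter on low values, and 1 and 7 with a replicate block, against 4 and 24. Among the members, 2 were called higher and 2 lower without the raised variance (*Kdm5a*, *Setd4*, *Hdac5*, *Smarcd1*), whose equal values within groups have a variance of 0, and 2 higher and 3 lower without the trend, *Smarca2* being added. In every other alternative run, the block included, 0 members were called. Leaving out 1 library called 0 to 2 genes higher and 5 to 9 lower, and 0 members. In the random draws *Npm1* had a log2 fold change of −1.97, where its limma adjusted p of 0.673 missed the threshold, and it passed in every other alternative run. The replicate numbers mark no known pairing, so the block is not the main analysis. The number of separated members was 2 higher and 2 lower, and 2 to 3 of each when 1 library was left out: *Smarcc1* joined without CTR replicate 1, *Smarca2* without NPM1 KD replicate 1 and *Kat2a* without CTR replicate 3. It was not computed for draws or centred libraries, where rounding no longer gives ties. The mean log2 fold change of the members stayed between −0.066 and 0.00694. Rounding to whole numbers limits differences of 1 unit too, since each allows an unrounded difference of anything above 0 and below 2. For a single value in all 6 libraries the unrounded difference lies above −1 and below 1. Library totals are unknown.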
